A study of Rattus norvegicus with 6 samples.

Results

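The genes described are 10 of the hypoxia response, taken by name from the 30562 genes of the table, and each name matched 1 row. They are the oxygen-regulated subunits Hif1a and Epas1, the oxygen sensor Egln3, the glucose and lactate genes Slc2a1, Pfkfb3, Ldha and Pdk1, the secreted factors Vegfa and Adm, and the mitophagy receptor Bnip3. In cells with enough oxygen, prolyl hydroxylases mark the alpha subunits of hypoxia-inducible factor (HIF), and the von Hippel-Lindau protein sends them to degradation. When oxygen is low the subunits persist, pair with Arnt and switch on genes for glucose uptake, glycolysis, vessel growth and removal of mitochondria. The disc has almost no vessels, and its nucleus pulposus cells are known to keep HIF-1 alpha even in normal oxygen. Much of this control acts on the protein, so RNA of the subunits is not a measure of their activity.

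RNA was sequenced from discs of wild-type male Sprague-Dawley rats after needle puncture of the tail disc, in 3 control libraries and in 3 that carry the label AF-PTK@LEV@SPP1. That name stands for a carrier with a peptide that binds annulus fibrosus cells and a linker cut by reactive oxygen species, and it releases vesicles loaded with siRNA against Spp1 (osteopontin). The rats were 12 weeks old, and a needle of 18 gauge was used. By the methods, 10 µL was injected into the disc 24 hours after puncture, with 1 mg/kg siRNA for the carrier. Control groups are described there as given 10 µL of PBS or empty liposomes, without siRNA. The labels call the controls untreated and give 14 days of treatment. The paper describes RNA controls treated with PBS, and its methods give 8 weeks for imaging and histology but no time for RNA sampling. Its results place the animals used for RNA in the main cohort, which was treated over 8 weeks. Nothing here settles which holds. The libraries held 15560728 to 17942989 counts. Values are given as CPM (counts per 1000000 counts of the library, scaled by TMM factors from the 6 libraries), and 3 counts, the smallest level taken as measured, stood at 0.154 to 0.193 CPM, a limit that covers counting error alone. The table has no gene lengths, so levels are compared between libraries and not between genes, apart from the marker lists below. Those are called abundant, or led by a gene, in CPM uncorrected for length.

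Library columns named AFPTK were matched to AF-PTK@LEV@SPP1 by name. The other columns, named IVD, were taken as the controls, since the paper calls its PBS group IVDD. Replicate numbers are those of the titles. Spp1 had 8122, 4411 and 4417 CPM in control replicates 1, 2 and 3, against 8054, 6903 and 8461 in labelled replicates 1, 2 and 3. The methods describe the siRNA as one against the mouse gene, and whether it acts on rat Spp1 is not given in the sources used here, so this level is a limited check of the labels. Spp1 was not lower under the label, with a log2 fold change of 0.31 (SE 0.37, edgeR adjusted p = 0.628), so groups are named by their labels throughout, the labelled replicates below being those of AF-PTK@LEV@SPP1, and every direction is relative to the label. Control replicates 2 and 3 agreed close to counting noise. Over 14393 genes their counts varied 1.33 times as much as counting noise, and 0.111% of genes differed, whereas the 5 other pairs within a group had ratios of 51.3 to 107. That pair was therefore summed and counted as 1 sample, which leaves 2 distinct control samples and 3 labelled ones. An exact permutation test of 3 against 2 samples cannot give a two-sided p below 0.1, so the tests reported come from edgeR across all genes. The methods speak of separate animals, 3 in each group, but no label ties a library to an animal, and why that pair differed so little was not tested. The p-values set the group difference against the spread within the groups of these 5 samples, estimated with information shared across genes.

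The tissue was checked against cell type markers, given as the summed CPM of each list in control replicates 1, 2 and 3 against labelled replicates 1, 2 and 3. The marker that leads a list had the most CPM over the 6 libraries together, but not always in each. Chondrocyte-like disc markers, led by Col2a1, summed to 20937, 31201 and 31070.4 against 37894, 27030.0 and 42603, and annulus and tendon markers, led by Fmod, to 2150.2, 4139 and 4168 against 4749, 3130.1 and 4786. The labels' protocol speaks of sorted macrophages, yet these matrix genes of whole disc were abundant in every library. Macrophage markers, led by Mrc1, summed to 954, 604 and 603 against 352, 566 and 436. Mrc1 did not lead in control replicate 1 or in any labelled library. Over all genes tested, 2.57% were called lower by edgeR. Of 7 macrophage markers 1, Cd68, fell (log2 fold change -1.97, SE 0.22, edgeR adjusted p = 0.0231), and it was lower in all 3 labelled libraries than in any control. So were 2 others, and the remaining 4 overlapped between the groups, beside 41.9% of all tested genes without overlap. Cd163, named after its values were seen, had 54.0, 29.5 and 29.0 against 47.2, 143 and 88.3 CPM and a log2 fold change of 1.15 (edgeR adjusted p = 0.246). Osteoclast markers, led by Ctsk, summed to 5304, 3354 and 3367 against 809.8, 740.1 and 477, and 3 of 5 fell, Acp5 (log2 fold change -2.02), Ctsk (-2.93) and Dcstamp (-3.34), with edgeR adjusted p of 0.0381, 0.0306 and 0.0119. Cd68, Acp5 and Dcstamp are named after their values were seen. All 4 calls were lost without labelled replicate 2 or 3, and those of Cd68, Acp5 and Ctsk also without labelled replicate 1 or control replicate 1 (edgeR adjusted p of 0.0565 to 0.163 over these).

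Nucleus pulposus markers, led by Cd24, summed to 755, 323 and 316 against 4219, 1502 and 1784, with 6 of 7 names matched and Noto at 0 in all 6 libraries. Labelled replicate 1 held the most of these notochordal transcripts, and the near-identical control pair the least. Shh also passed the count filter, through labelled replicates 2 and 3, but had at most 2 counts in each control and is left out of the fold changes given below. In the 4 others tested, Tbxt, Krt8, Krt18 and Cd24, every labelled library was above every control, beside 41.9% of all tested genes whose groups did not overlap. Their log2 fold changes were 2.54, 2.22, 3.08 and 2.00, with a median of 2.38. Without control replicate 1 those of Tbxt and Krt8 were 4.73 and 3.63, and without labelled replicate 1 those of Krt8 and Krt18 were 1.46 and 2.24. None of the 4 passed with edgeR (adjusted p = 0.0913 for Cd24, 5.32e-04 to 0.205 over the alternatives) or limma-voom, while DESeq2 called all 4, beside 16.6% of all genes. Tbxt, Krt8 and Krt18 are named after their values were seen. Skeletal muscle markers, led by Acta1, summed to 916, 1179 and 1201 against 886, 9289 and 2386, and were highest in labelled replicate 2. Acta1 did not lead in the controls. Erythroid markers, led by Hba-a1, reached 2391, 3187 and 3277 against 2507, 20566 and 14098, and neutrophil markers, led by S100a9, 1104, 172 and 163 against 281, 2820.5 and 3899. Blood transcripts were thus high in labelled replicates 2 and 3, and neutrophil ones also in control replicate 1. Adipocyte markers, led by Adipoq, summed to 165, 17.6 and 17.3 against 431, 855 and 303. Endothelial markers, led by Pecam1, summed to 490.2, 592 and 583 against 355, 407 and 412, and osteoblast markers, led by Ibsp, to 4483, 1775 and 1769.7 against 2104, 3052 and 1752. The nucleus pulposus, chondrocyte, annulus, neutrophil, erythroid, endothelial, muscle, adipocyte and osteoblast lists held 53 tested genes, Shh among them. Of these, 0 passed adjusted p of 0.05 with edgeR or limma-voom. An unadjusted p under 0.05 was found for 15 (25.4% of all genes), and DESeq2 called 14 (16.6% of all). Beside the nucleus pulposus genes, DESeq2 called 3 endothelial, 3 adipocyte, 2 erythroid, 1 chondrocyte-like and 1 annulus marker. All 5 adipocyte markers were without overlap between the groups, beside 41.9% of all tested genes. Of these, Lep and Retn are named after their values were seen. Lep had 17, 3 and 3 counts in control replicates 1, 2 and 3. Retn had 21.3 CPM in control replicate 1 and 23.1 in labelled replicate 1. Bulk RNA was sequenced, so fewer cells of a type and less RNA per cell cannot be told apart.

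**Figure D1:**
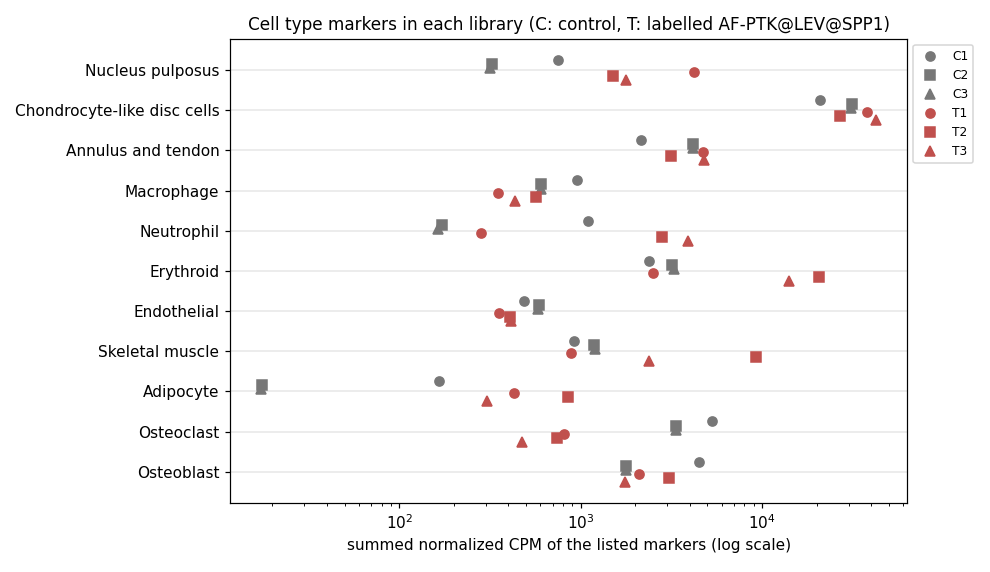
Summed normalized CPM (log scale) of the markers of 11 cell types in each of 6 libraries, grey for control and red for the AF-PTK@LEV@SPP1 label, with 1 point per library. Labelled replicate 1 has the highest nucleus pulposus sum (4219) and labelled replicate 2 the highest muscle sum (9289).

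None of the 10 genes was lost to the count filter, and 0 of 10 differed between the groups at adjusted p under 0.05 with edgeR. The same test called 575 of 15537 genes (3.70%), 175 of them higher (1.13%) and 400 lower (2.57%) under the AF-PTK@LEV@SPP1 label. At an unadjusted p under 0.05 the count was also 0 of 10, beside 3941 of all tested genes (25.4%). DESeq2 and limma-voom called 0 of 10 as well, beside 16.6% and 2.92% of all genes, and so did edgeR with the 6 libraries apart, which called 18.1% of all genes. The median log2 fold change of the 10 was -0.04, with 5 above and 5 below 0, against 0.05 over all tested genes. The 3 labelled libraries lay wholly apart from the 3 control libraries in 2 of the 10, Hif1a and Epas1, beside 41.9% of all tested genes. The overall count changed with single libraries, and edgeR called 0 genes without labelled replicate 2 or 3, 113 without labelled replicate 1 and 280 without control replicate 1.

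**Figure D2:**
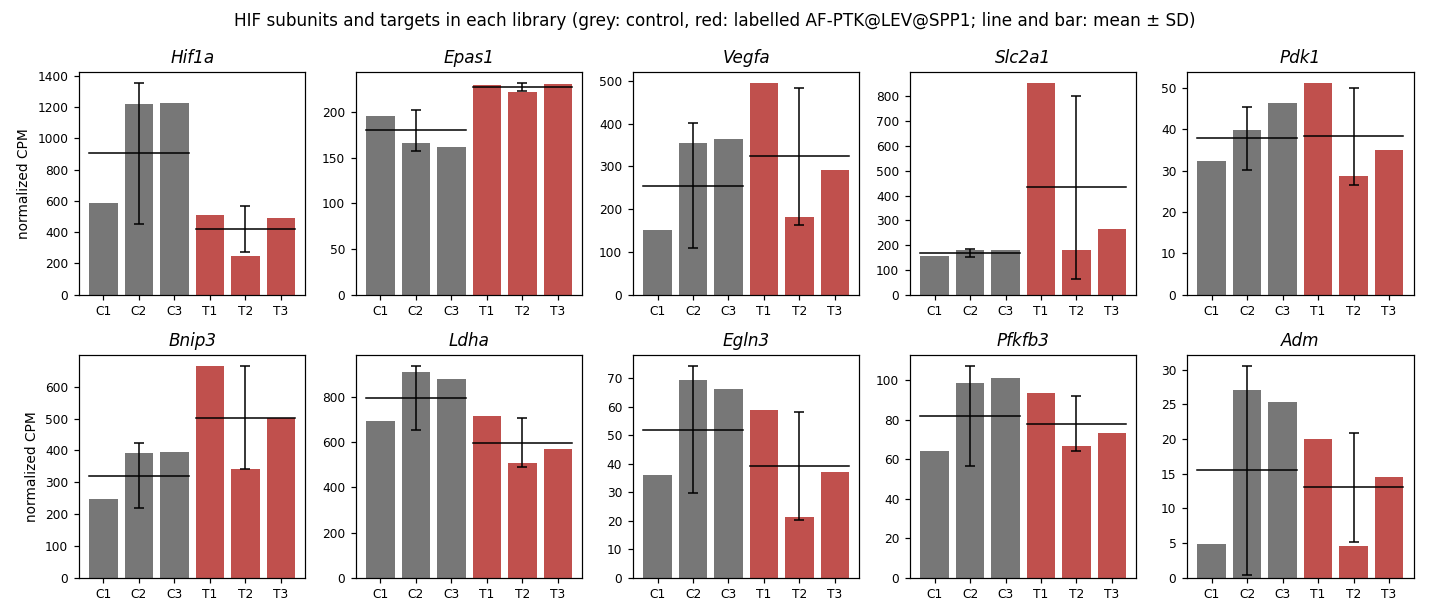
Normalized CPM of each of the 10 genes in control (C1 to C3, grey) and AF-PTK@LEV@SPP1-labelled (T1 to T3, red) libraries, each panel on its own axis from 0. Lines and error bars give the mean ± SD with C2 and C3 counted as 1 sample (n = 2 and n = 3). For Hif1a all red bars lie below all grey ones, and for Epas1 above them, while the groups overlap in the other 8.

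Hif1a (ENSRNOG00000008292, chr6:92624390-92669261, positions here as in the table, which names no build) encodes the alpha subunit of HIF-1. It had 585, 1221 and 1227 CPM in control replicates 1, 2 and 3, against 511, 248 and 494 in labelled replicates 1, 2 and 3. The highest labelled library lay below the lowest control, but control replicate 1 was nearer to the labelled libraries than to the other controls. The means were 905 ± 452 (SD, n = 2) against 418 ± 147 (SD, n = 3) CPM. On the log2 scale the fold change was -1.12 (SE 0.45, 95% interval -2.26 to 0.01, edgeR adjusted p = 0.200), and the difference did not pass the test.

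Epas1 (ENSRNOG00000021318, chr6:7790647-7871228) encodes the alpha subunit of HIF-2, which shares the partner Arnt. It had 196, 167 and 162 CPM in control replicates 1, 2 and 3, against 229.8, 222 and 231 in labelled replicates 1, 2 and 3. These values lay on the opposite side to those of Hif1a, and the labelled libraries were close together, at 180.2 ± 22.6 (SD, n = 2) against 228 ± 4.70 (SD, n = 3) CPM. Its log2 fold change was 0.33 (SE 0.13, 95% interval -0.01 to 0.66, edgeR adjusted p = 0.205), so this difference did not pass either. Whether the 2 subunits differed from each other in their change was not tested.

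Arnt, the common beta subunit, differed by less than the spread, with 79.3, 88.9 and 91.9 against 94.4, 83.0 and 83.1 CPM in control against labelled replicates 1, 2 and 3 and a log2 fold change of 0.02 (95% interval -0.29 to 0.34). Hif3a, an alpha subunit with inhibitory forms, stood at 0.154, 0 and 0 against 0.764, 0.905 and 0.342 CPM, with the controls at or under the level of 3 counts. It passed the count filter through the labelled libraries alone, so no fold is given here. It is left out of the other counts of this paragraph. Among the 6 other subunits and partners tested, 0 passed with edgeR, 3 had an unadjusted p under 0.05 (25.4% of all genes did), and DESeq2 called 2 (16.6% of all) and limma-voom 0. The 3, named after their values were seen, were Arnt2, Ep300 and Crebbp, with log2 fold changes of -1.15, 0.29 and 0.32, so that Arnt2, a relative of Arnt, lay on the opposite side to the coactivators Ep300 and Crebbp. DESeq2 called Arnt2 and Ep300. The median log2 fold change of the 6 was 0.16.

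Egln3 (ENSRNOG00000005053, chr6:71650297-71675766) encodes a prolyl hydroxylase that marks HIF alpha subunits and is itself a HIF target. It had 36.1, 69.3 and 66.1 CPM in control replicates 1, 2 and 3, against 58.9, 21.2 and 37.0 in labelled replicates 1, 2 and 3. The groups overlapped, and both held a low and a high sample. edgeR gave a log2 fold change of -0.42 (SE 0.48, 95% interval -1.64 to 0.80, edgeR adjusted p = 0.617).

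The main hydroxylase Egln1 had 43.4, 60.2 and 57.3 against 81.4, 41.8 and 55.0 CPM (control against labelled) and a log2 fold change of 0.21 (adjusted p = 0.710, edgeR), which turned to -0.12 without labelled replicate 1. Vhl, the recognition subunit of the ligase, had 41.3, 38.5 and 41.0 against 47.2, 36.6 and 36.1 CPM and a log2 fold change of -0.03 (95% interval -0.42 to 0.36), a difference smaller than the spread. Hif1an, the asparaginyl hydroxylase that blocks binding of the coactivators, had 31.5, 34.2 and 31.4 against 42.4, 44.8 and 37.5 CPM and a log2 fold change of 0.36 (SE 0.12, edgeR adjusted p = 0.151), higher in all 3 labelled libraries but not past the test.

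Cited2 (ENSRNOG00000056940, chr1:12312160-12314897), a HIF target whose product competes with HIF-1 alpha for the coactivators CBP and p300, was the gene of this group that rose. It had 54.2, 37.2 and 37.0 CPM in control replicates 1, 2 and 3, against 123, 127 and 110.2 in labelled replicates 1, 2 and 3. Every labelled library exceeded every control by more than the spread within either group, at 45.7 ± 12.1 (SD, n = 2) against 119.9 ± 8.62 (SD, n = 3) CPM. The difference was a log2 fold change of 1.39 (SE 0.20, 95% interval 0.89 to 1.88, edgeR adjusted p = 0.0364, 1.48e-07 to 0.150 over the alternatives). The call was lost without any 1 of the 3 labelled libraries (adjusted p = 0.0758, 0.0999 and 0.150 without replicates 1, 2 and 3, edgeR) and with library totals (0.0547). Of the 6 hydroxylases and negative regulators 1 rose and 0 fell, beside 1.13% and 2.57% of all genes, and their median log2 fold change was 0.13.

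Slc2a1 (ENSRNOG00000007284, chr5:132717196-132745416) encodes GLUT1, the transporter that brings glucose into disc cells. It had 157, 179 and 182 CPM in control replicates 1, 2 and 3, against 855, 179.7 and 264 in labelled replicates 1, 2 and 3. Labelled replicate 1 stood far above the 5 other libraries, which ran from 157 to 264. The labelled mean therefore carried a large error, 168 ± 16.7 (SD, n = 2) against 433 ± 368 (SD, n = 3) CPM. On the log2 scale the fold change was 1.35 (SE 0.72, 95% interval -0.47 to 3.18, edgeR adjusted p = 0.300), and it was 0.36 without labelled replicate 1. That library also had the highest nucleus pulposus sum, and the part of that in the Slc2a1 value was not tested.

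Pfkfb3 (ENSRNOG00000018911, chr17:66983686-67063125) makes fructose 2,6-bisphosphate, the activator of phosphofructokinase. It had 64.0, 98.6 and 101 CPM in control replicates 1, 2 and 3, against 93.7, 66.9 and 73.4 in labelled replicates 1, 2 and 3. The groups overlapped, and the log2 fold change was -0.08 (95% interval -0.71 to 0.55, edgeR adjusted p = 0.859), which turned to 0.02 without labelled replicate 2. Pdk1 (ENSRNOG00000001517, chr3:56705871-56733038), the kinase that keeps pyruvate out of mitochondria, had 32.5, 39.9 and 46.5 CPM in control replicates 1, 2 and 3, against 51.3, 28.7 and 34.9 in labelled replicates 1, 2 and 3. Its mean was almost the same in both groups, 37.8 ± 7.60 (SD, n = 2) against 38.3 ± 11.7 (SD, n = 3) CPM, with a log2 fold change of 0.01 (95% interval -0.71 to 0.73, edgeR adjusted p = 0.990) whose sign was negative under RLE scaling and several other settings.

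Ldha (ENSRNOG00000013009, chr1:97366021-97433472), which turns pyruvate into lactate at the end of glycolysis, had 695, 911 and 881 CPM in control replicates 1, 2 and 3, against 717, 509.9 and 568 in labelled replicates 1, 2 and 3. Labelled replicates 2 and 3 lay below all controls, while labelled replicate 1 lay above the lowest control. Its log2 fold change was -0.42 (SE 0.23, 95% interval -0.99 to 0.15, edgeR adjusted p = 0.304). The span of Ldha overlaps Ldhc and, on the other strand, Tsg101, and how shared reads were counted is not given in the sources used here.

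Of the 21 tested genes of glucose uptake, glycolysis and lactate, 0 passed adjusted p of 0.05 with edgeR, 2 had an unadjusted p under 0.05 (25.4% of all genes), and DESeq2 called 1 (16.6% of all) and limma-voom 0. Their log2 fold changes ran from -0.48 to 1.39 with a median of 0.08. The highest belonged to Pfkm, the muscle form of phosphofructokinase, named after its values were seen. It had 43.9, 52.6 and 54.7 CPM in control replicates 1, 2 and 3, against 53.2, 251 and 82.9 in labelled replicates 1, 2 and 3. Its high value was in labelled replicate 2, the library with the most muscle RNA, and without it the log2 fold change was 0.48. No part of that was tested.

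Vegfa (ENSRNOG00000019598, chr9:14955300-14970641), the main growth signal for endothelial cells, had 151, 354 and 363 CPM in control replicates 1, 2 and 3, against 495, 182 and 292 in labelled replicates 1, 2 and 3. The groups overlapped widely, with low and high samples in both, at 255 ± 147 (SD, n = 2) against 323 ± 159 (SD, n = 3) CPM. edgeR gave a log2 fold change of 0.33 (SE 0.55, 95% interval -1.07 to 1.73, edgeR adjusted p = 0.738), and it turned negative without control replicate 1 (-0.17) or without labelled replicate 1 (-0.15).

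Adm (ENSRNOG00000027030, chr1:164745466-164747654) encodes adrenomedullin, a vasodilator peptide. It had 4.88, 27.0 and 25.3 CPM in control replicates 1, 2 and 3, against 19.99, 4.59 and 14.5 in labelled replicates 1, 2 and 3. Control replicate 1 and labelled replicate 2 were both low, and the range within each group was larger than the difference between them. The difference was a log2 fold change of -0.27 (SE 0.86, 95% interval -2.45 to 1.91, edgeR adjusted p = 0.869), and 0.14 without labelled replicate 2 and -1.02 without control replicate 1.

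Of the 6 tested secreted vascular factors 0 passed with edgeR and limma-voom, 3 passed with DESeq2, and 4 had an unadjusted p under 0.05, beside 16.6% and 25.4% of all genes. Their median log2 fold change was -0.90. Epo had too few counts to be tested.

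None of the receptors for these factors passed the test. Kdr, the main VEGF receptor, had 56.0, 62.1 and 55.3 against 51.4, 66.1 and 58.9 CPM in control against labelled libraries and a log2 fold change of 0.03 (95% interval -0.32 to 0.37). The decoy-like receptor Flt1 had a log2 fold change of 0.03 (95% interval -0.48 to 0.53), and the coreceptors Nrp1 and Nrp2 had -0.09 and -0.42. For adrenomedullin, the receptor Calcrl had 25.9, 29.3 and 28.1 against 24.6, 27.0 and 22.7 CPM and a log2 fold change of -0.15, and its partner Ramp3 11.5, 9.26 and 10.6 against 3.76, 7.96 and 8.15 CPM and -0.70. Of these 6 receptor genes 0 passed with edgeR, DESeq2 or limma-voom, beside 3.70%, 16.6% and 2.92% of all genes. An unadjusted p under 0.05 was found for 0 of them, beside 25.4% of all genes. The signs for Kdr, Flt1 and Nrp1 changed when 1 library was left out.

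Bnip3 (ENSRNOG00000017243, chr1:193708167-193725359) encodes a receptor on the outer mitochondrial membrane that recruits the autophagy machinery. It had 248, 393 and 395 CPM in control replicates 1, 2 and 3, against 665, 340.3 and 503 in labelled replicates 1, 2 and 3. The 2 higher labelled libraries lay above all controls, and labelled replicate 2 lay among them. On the log2 scale the fold change was 0.64 (SE 0.36, 95% interval -0.27 to 1.55, edgeR adjusted p = 0.322).

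Bnip3l (ENSRNOG00000009820, chr15:41174594-41197803), the related receptor also called NIX, which clears mitochondria from maturing red cells as well, rose. It had 167, 176 and 179 CPM in control replicates 1, 2 and 3, against 303, 294 and 303 in labelled replicates 1, 2 and 3. The spread within each group was small beside the difference, at 172 ± 7.04 (SD, n = 2) against 300.1 ± 4.97 (SD, n = 3) CPM. Its log2 fold change was 0.79 (SE 0.12, 95% interval 0.48 to 1.10, edgeR adjusted p = 0.0410, 7.92e-13 to 0.171 over the alternatives). Erythroid markers also differed between libraries, with the sums given above, and their part in the Bnip3l values was not tested. The call was lost without any 1 of the labelled libraries or without control replicate 1 (edgeR adjusted p = 0.116), and with no filter (0.0526). The test of a difference between Bnip3 and Bnip3l was not run.

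Of the 7 genes of mitochondria and autophagy 1 rose and 0 fell (1.13% and 2.57% of all genes), and the median log2 fold change was 0.64. Ndufa4l2, a HIF-1 target in the respiratory chain that is named after its values were seen, had 165, 201 and 203 CPM in control replicates 1, 2 and 3, against 677, 277 and 459 in labelled replicates 1, 2 and 3. All 3 labelled libraries exceeded all controls, with a log2 fold change of 1.35 (SE 0.41, edgeR adjusted p = 0.127, 0.0130 to 0.303 over the alternatives), and labelled replicate 1 was again the highest.

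Hilpda (ENSRNOG00000070930, chr4:57871110-57874557), which blocks lipid breakdown and lets lipid droplets build up under low oxygen, fell. It had 23.0, 30.3 and 29.9 CPM in control replicates 1, 2 and 3, against 9.76, 8.21 and 10.3 in labelled replicates 1, 2 and 3. The labelled libraries were close to each other and below every control, at 26.5 ± 4.998 (SD, n = 2) against 9.41 ± 1.07 (SD, n = 3) CPM. edgeR gave a log2 fold change of -1.51 (SE 0.18, 95% interval -1.97 to -1.04, edgeR adjusted p = 0.0280, 2.54e-08 to 0.138 over the alternatives). The call was again lost without any 1 of the labelled libraries. In its list of 14 genes of collagen modification and other targets 0 rose and 1 fell, against 1.13% and 2.57% of all genes, and the median was -0.24.

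Hmox1, the heme-degrading enzyme, and Car12, a carbonic anhydrase of the cell surface, are named after their values were seen. Hmox1 had 151, 274 and 282 CPM in control replicates 1, 2 and 3, against 27.6, 81.1 and 73.6 in labelled replicates 1, 2 and 3. It was lower in all 3 labelled libraries (log2 fold change -1.83, SE 0.52, edgeR adjusted p = 0.113), and the adjusted p ran from 0.00550 to 0.255 over the alternatives. Car12 had 73.6, 73.3 and 72.7 CPM in control replicates 1, 2 and 3, against 42.0, 26.1 and 29.9 in labelled replicates 1, 2 and 3, also lower throughout (log2 fold change -1.17, SE 0.22, edgeR adjusted p = 0.0556, 3.32e-04 to 0.197 over the alternatives). Car9, the related and more strictly HIF-driven enzyme, also named after its values were seen, showed no such separation, with 19.3, 62.8 and 67.5 CPM in control replicates 1, 2 and 3, against 83.8, 19.8 and 60.3 in labelled replicates 1, 2 and 3. Of the 4 genes of pH regulation 0 passed with edgeR and limma-voom, 1 passed with DESeq2, and 2 had an unadjusted p under 0.05, with 16.6% and 25.4% of all genes doing so.

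Over the 61 other pathway genes tested, Hif3a among them, 2 rose and 1 fell, beside 3.70% called over all genes. With the 6 libraries apart the counts were 10 higher and 7 lower, beside 18.1%, with the near-identical controls then counted as separate samples. The median log2 fold change of the 61 was 0.07 (0.06 without Hif3a), against 0.05 over all tested genes. Without labelled replicate 2 or 3 the count was 0, and without labelled replicate 1 it was 1, while DESeq2 called 13 with the pair as 1 sample, beside 16.6% of all genes.

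**Figure D3:**
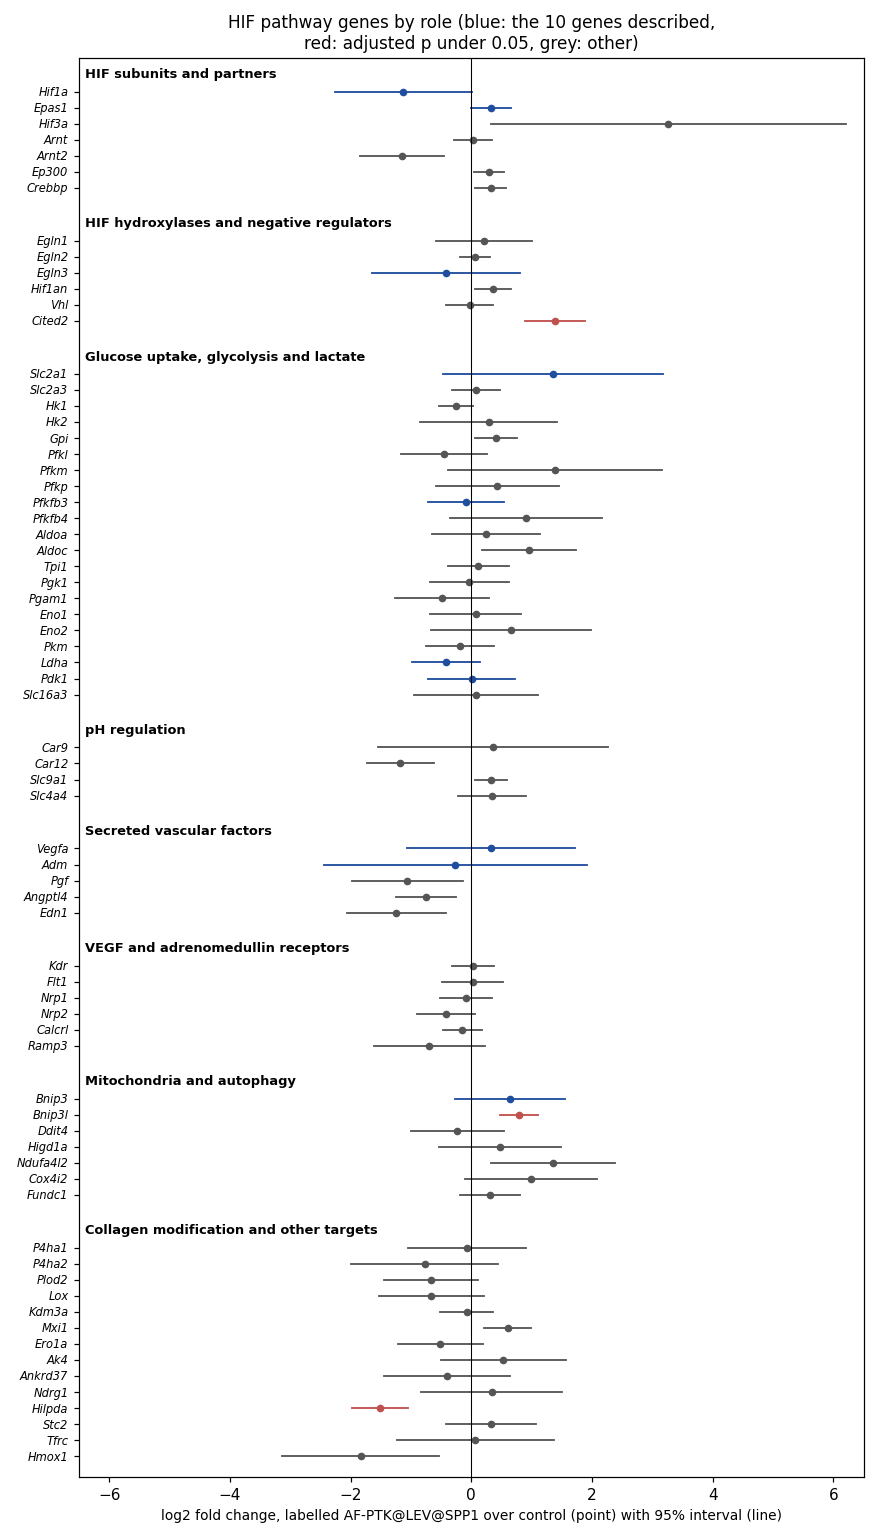
Log2 fold changes of HIF pathway genes tested, AF-PTK@LEV@SPP1 label over control, with 95% intervals calculated from the edgeR test, grouped by role. Cited2 and Bnip3l (red) lie above 0 and Hilpda (red) below, while the intervals of the 10 genes described (blue) all include 0. The value drawn for Hif3a, for which the text gives no fold, rests on controls with at most 3 counts.

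Within both groups the targets shared an order of the libraries, which is described after the values were seen and was not tested. Labelled replicate 1 was above replicate 3 and replicate 3 above replicate 2 in 8 of the 8 members other than Hif1a and Epas1, and in 9 of all 10. The same order held in 33 of the 61 other pathway genes (54.1%) and in 3472 of the 15226 tested genes with a count in all 6 libraries (22.8%). The 61 were not limited in this way and include Hif3a, which had no count in control replicates 2 and 3. Among the controls, the near-identical pair was above replicate 1 in 8 of 8, in 45 of 61 (73.8%) and in 50.3% of all. The median ratio of labelled replicate 1 to replicate 2 was 2.34 over the 8 targets, 1.22 over the other pathway genes and 1.00 over all. The genes come from the same libraries and are not independent of each other.

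In the 8 targets the order was also read under other scalings. With RLE factors, upper-quartile factors and library totals, alternatives added after seeing the data, the labelled order again held in 8 of 8, and the controls' order held in 8 of 8 except with library totals, where it was 7 of 8. With library totals the comparison shares were lower too, the labelled order holding in 27 of the 61 other pathway genes and 15.1% of all, and the controls' order in 33 of 61 and 28.5% of all. The libraries also differed in their cell type markers in the same places. Labelled replicate 2, the lowest for the targets, had the highest muscle sum (9289 CPM) and erythroid sum (20566) of the 6 libraries, and the lowest chondrocyte-like sum of the labelled libraries. Labelled replicate 1 had the highest nucleus pulposus sum. Control replicate 1, lower for the targets than the pair, had the lowest chondrocyte-like (20937 CPM) and annulus sums (2150.2) of all, yet more nucleus pulposus RNA than the pair. The chondrocyte-like list was not uniform, since 3 of its 7 markers, Col9a1, Matn3 and Hapln1, named after their values were seen, were highest of all 6 libraries in control replicate 1. Matn3 had 376, 349 and 338 against 196, 176 and 89.8 CPM in control against labelled replicates 1, 2 and 3, and Hapln1 1265, 864 and 864 against 811, 679 and 596 CPM, both lower in every labelled library than in any control but not past the test (edgeR adjusted p = 0.111 and 0.195). The part of these markers in the targets' levels was not tested.

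Since the targets shared an order, their promoters were searched for the core letters of the hypoxia response element, ACGTG or GCGTG, on both strands (CACGT and CACGC on the other strand). ACGTG and CACGT overlap in the palindrome CACGTG, which then counts as 2 matches. RefSeq promoter windows of build GRCr8 were found for all 10 genes, and the 250 bases before the gene's start were read. At least 1 match was present in 6 of the 10, namely Hif1a, Slc2a1, Pdk1, Bnip3, Ldha and Pfkfb3. The windows of Epas1, Vegfa (2 entries), Egln3 and Adm held none, which says only that these letters are not in these bases. Over all 33469 promoters 36.7% held a match, and 16.6% held ACGTG or its complement. Each of these motifs contains CG. Bases in CG pairs made up 10.4 to 21.6% of the windows of the 6 genes with a match, and 22.4% for Epas1. They made up 0.8% for Egln3, 4.8% for Adm, and 9.6 and 6.4% for the 2 entries of Vegfa. The share over all promoters was not matched for CG content. Among the 3 called genes, Cited2 and Hilpda held matches, and Bnip3l had no entry. A match is a run of letters and not a site of binding.

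The 60 bases around the match nearest the start are shown for the 8 genes, with each match inside the window in capitals, to let the letters be compared between genes that varied together and those that changed with the label. Positions are GRCr8 and all are on the + strand except Bnip3 on the − strand, written 5′ to 3′ along the gene. They lie at chr6:98359706-98359765 (Hif1a), chr5:138002462-138002521 (Slc2a1), chr3:77113432-77113491 (Pdk1), chr1:203155021-203155080 (Bnip3), chr1:106508032-106508091 (Ldha), chr17:71944864-71944923 (Pfkfb3), chr1:14132116-14132175 (Cited2), chr4:58836403-58836462 (Hilpda), all upstream of the gene's start.
Hif1a: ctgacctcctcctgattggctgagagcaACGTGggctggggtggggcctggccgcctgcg
Slc2a1: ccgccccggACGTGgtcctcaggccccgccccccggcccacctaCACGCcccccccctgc
Pdk1: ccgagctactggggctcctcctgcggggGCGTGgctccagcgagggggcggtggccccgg
Bnip3: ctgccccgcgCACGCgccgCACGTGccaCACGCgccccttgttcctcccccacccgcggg
Ldha: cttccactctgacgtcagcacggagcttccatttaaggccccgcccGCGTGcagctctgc
Pfkfb3: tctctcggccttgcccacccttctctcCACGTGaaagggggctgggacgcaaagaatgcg
Cited2: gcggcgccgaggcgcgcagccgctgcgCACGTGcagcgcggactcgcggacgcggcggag
Hilpda: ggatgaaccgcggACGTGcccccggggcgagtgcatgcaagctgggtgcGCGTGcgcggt
The Bnip3 window held 4 matches within 60 bases, of which the middle pair overlap, and in the 60 bases shown CACGTG occurred for Bnip3, Pfkfb3 and Cited2. Farther from the start it also occurred for Hif1a and Ldha. So 5 of the 12 genes with an entry (the 10 members, Cited2 and Hilpda) held it within 250 bases, beside 5.59% of all promoters. That share was not matched for CG content, and no test was made of this. Bnip3 and Pfkfb3 did not pass the test between the groups and Cited2 did, so genes with a match stood on both sides of it.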

How the data were processed

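The authors deposited counts, 1 whole number per Ensembl rat gene and library, without normalization. Their processing notes name FastQC, Trimmomatic, HISAT2, featureCounts and DESeq2 without versions and the mouse build mm10, although the rows are rat genes; whether reads were counted by strand, how shared reads were handled and which build was used is not given in the sources used here. Members and lists were chosen with earlier results of these data known.

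Counts were normalized by TMM, filtered with filterByExpr (minimum count 10) and tested with edgeR 4.0.16 (quasi-likelihood, Benjamini-Hochberg over all tested genes, called at adjusted p under 0.05) in R 4.3.3, on 5 distinct samples and group alone. Alternatives used DESeq2 1.42.0, limma 3.58.1 (voom), other scalings and filters, all 6 libraries, and each library left out. Scripts were tested on simulated data. Named genes are the 10 members, Spp1, pathway genes that passed, HIF regulators and receptors fixed by name, and the most abundant marker of each list, and other genes are marked as named after their values were seen. Gapdh, Ramp2, Krt19, Myh1 and Hba-a2 matched no row and are not analysed here, and 1 pathway gene that the counts include is not reported here. Aldoa stood near 1 CPM, and whether its reads were shared with copies is unknown. Promoters are from RefSeq (GRCr8), whose coordinates are not those of the table. Figures were drawn with matplotlib 3.10.9.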

Additional observations from a re-analysis of the deposited data

How the results depend on the processing

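The count of the 10 genes called was 0 under all 16 alternatives, and Spp1 stayed positive and not called under all 15 of its own. Genes called over all genes numbered 575, against 2727 with the 6 libraries apart and 2572 with DESeq2, and 0 to 566 when 1 library was left out. Other pathway genes called numbered 3, against 17 with the 6 libraries apart, 13 with DESeq2 and 5 with the replicate block, and 0 to 3 with 1 library left out. With fewer samples there are fewer residual degrees of freedom, and without control replicate 1 the lone control is assumed to vary like the labelled ones. For the other differences between settings the cause was not tested.

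The block used the replicate numbers of the titles. These were not found to pair the samples. Same-numbered libraries had a mean correlation of deviations from the group mean of -0.24 (0.11 for different numbers). Control replicates 2 and 3 were near-identical and deviations sum to 0 within a group. The check therefore cannot decide whether numbers 2 and 3 pair samples. The block gave 741 genes called. That fit also counts the near-identical controls as 2 samples. Of the named genes not called on the 5 samples it called Hmox1, Car12, Krt18 and Cd24, which the 6 libraries apart without the block called as well, and Tbxt and Krt8, which they did not (edgeR adjusted p of 0.0435 and 0.0286 with the block, 0.0789 and 0.0675 without).

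Of 790 values for 53 named genes under the alternatives, 697 kept direction and side of the threshold, 26 lost and 34 gained a call, and 33 changed sign, none of them called. The log2 fold change turned for 5 genes at other settings. For Pdk1 it was 0.00716, and -0.0474 with the 6 libraries apart, -0.0776 with the replicate block, -0.0141 with DESeq2, -0.0261 with limma-voom, -0.0144 with RLE factors and -0.0412 with no filter. For Arnt it was 0.0238, and -2.88e-05 with DESeq2 and -0.0245 with no filter. For Vhl it was -0.0291, and 0.000325 with upper-quartile factors. For Kdr it was 0.0283, and -0.0199 with no filter. For Flt1 it was 0.0253, and -0.0155 with the 6 libraries apart, -0.0262 with the replicate block and -0.0230 with no filter. With 1 library left out, those that changed sign ran from -0.17 to 0.62 for Vegfa, from -0.29 to 0.18 for Pdk1, from -0.38 to 0.0212 for Pfkfb3, from -1.02 to 0.14 for Adm, from -0.0757 to 0.0602 for Arnt, from -0.20 to 0.0434 for Vhl, from -0.12 to 0.41 for Egln1, from -0.0587 to 0.0838 for Kdr, from -0.16 to 0.15 for Flt1, from -0.23 to 0.00494 for Nrp1 and from -0.27 to 0.76 for Car9.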
